A study of Sus scrofa with 12 samples.

Results

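The genes described are 8 genes of fatty acid oxidation and its control, measured in 12 pigs in the mucosa of the jejunum, the main absorptive stretch of the small intestine. They are the carnitine palmitoyltransferases CPT1A and CPT2, the mitochondrial trifunctional protein subunits HADHA and HADHB, the acyl-CoA dehydrogenases ACADVL and ACADM, the nuclear receptor PPARA and the pyruvate dehydrogenase kinase PDK4. They were chosen by name with earlier results of these data known, so their counts beside those of all genes are descriptions only. They are 8 of the 13664 genes with a named probe set, and 15 probe sets (groups of short probes designed against 1 transcript) carried their symbols. For each gene the probe set of highest mean over the 12 arrays was taken as the main one, so the mean levels served to choose it and are given as a description. None of the 8 is an enzyme of ketone body synthesis.

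The study compared pigs labelled as high or low in feed efficiency, all aged 140 days, with 1 Affymetrix Snowball array per pig and 3 males and 3 females in each group. The high group held pigs 301, 302 and 303 (males) and 304, 317 and 318 (females). The low group held pigs 307, 308 and 309 (males) and 310, 323 and 324 (females). The sources used here do not state breed, diet or the measure of feed efficiency. The identifiers fall into a range from 301 to 310 with 8 pigs and a range from 317 to 324 with 4 pigs. The labels do not say what the ranges stand for. All 4 pigs of the higher range were female, whereas the lower range held 6 males and 2 females.

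Long-chain fatty acids enter mitochondria through the carnitine shuttle: CPT1A links them to carnitine at the outer membrane, a step that malonyl-CoA blocks, and CPT2 returns them to coenzyme A inside. ACADVL (very long chains) and ACADM (medium chains) then start each round of beta oxidation, and the trifunctional protein, with HADHA as alpha and HADHB as beta subunit, carries out the remaining steps for long chains. PPARA is a lipid-sensing receptor that switches on many of these genes, and PDK4, one of its known targets, slows the use of glucose by inhibiting pyruvate dehydrogenase. Enterocytes, the absorptive cells of the jejunum, re-esterify most dietary fat for export and oxidize some of it.

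Values are the deposited log2 signals, on which a difference of 1 is a doubling. Array medians lay between 4.02 and 4.16, the 69 background control probe sets averaged 3.66 to 3.88 per array, and pairs of arrays correlated at 0.922 to 0.969 over probe sets. All 11 measured of 12 listed enterocyte markers were above the filter on dim probe sets, and their mean per pig was 9.88 to 11.09 in 11 pigs. Pig 301 stood apart at 8.64. In the same pig 4 measured stomach markers averaged 10.07 against 5.16 to 6.89 in the other pigs, and its means of goblet cell (9.94), fibroblast (10.29) and smooth muscle markers (8.97) were the highest of the 12. Values without pig 301 are therefore given beside the results it moved most. In mucosa, a mixture of cells, fewer cells of a type and less RNA per cell cannot be told apart.

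CPT1A, the entry step, was measured at 6.70, 5.67 and 5.75 in the high-efficiency males (pigs 301, 302 and 303). The low-efficiency males 307, 308 and 309 had 5.93, 6.14 and 6.62. The high-efficiency females 304, 317 and 318 had 6.14, 6.93 and 6.72, and the low-efficiency females 310, 323 and 324 had 6.26, 7.90 and 7.62. The 4 pigs numbered 317 to 324 were thus the 4 highest, with 323 and 324 well above the rest. CPT2, the inner membrane partner, spanned less: its lowest, median and highest values were 6.31, 6.41 and 6.65 in the high group and 6.21, 6.60 and 7.28 in the low group. Pig 323 was the highest for both transferases.

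HADHA was measured at 9.35, 9.08 and 9.17 in the high-efficiency males and at 9.43, 9.85 and 9.95 in the low-efficiency males. In females it was 9.46, 10.14 and 9.88 in the high group and 10.27, 10.41 and 10.09 in the low group. The male groups did not overlap and the female groups did. HADHB gave 7.45, 7.71 and 7.25 in the high-efficiency males and 7.98, 8.21 and 7.97 in the low-efficiency males. Its females had 7.96, 8.23 and 8.01 in the high group and 8.26, 8.38 and 8.10 in the low group. The 3 high-efficiency males had the 3 lowest values of all 12 pigs for both subunits. The genes of the subunits are neighbours in the RefSeq gene order of pig assembly Sscrofa11.1, with 0 protein-coding genes between them.

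ACADVL had a lowest, median and highest value of 9.04, 9.32 and 9.98 in the high group and 9.04, 9.11 and 9.71 in the low group, so the groups overlapped almost fully. ACADM gave 6.79, 8.11, 8.14 and 8.08 in the high-efficiency pigs 301 to 304 and 7.55 and 7.29 in pigs 317 and 318. The low-efficiency pigs had 8.37, 7.61, 7.55 and 7.51 in pigs 307 to 310 and 7.24 and 6.88 in pigs 323 and 324. The lowest ACADM value was that of pig 301, the pig with the lowest enterocyte markers. Over the 12 pigs ACADM correlated with the mean of the enterocyte markers at r = 0.733, and at 0.70 without pig 301. With that mean as a term, the feed efficiency difference of ACADM was 0.33 (SE 0.157) in place of 0.13 (SE 0.268), and that of CPT1A -0.59 in place of -0.43, and neither passed the adjusted threshold.

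PPARA was measured at 7.48, 7.88 and 7.61 in the high-efficiency males and at 8.01, 8.09 and 8.10 in the low-efficiency males. The females had 7.97, 8.30 and 8.33 in the high group and 8.33, 8.49 and 8.07 in the low group. As for the trifunctional subunits, the male groups did not overlap and the female groups did. PDK4, the most variable of the 8, had a lowest, median and highest value of 3.86, 5.16 and 5.90 in the high group and 3.90, 5.13 and 6.44 in the low group. Its lowest values, in pigs 301 and 308, were near the 3.66 to 3.88 of the background controls, and its highest were in pigs 323 and 324.

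**Figure D1:**
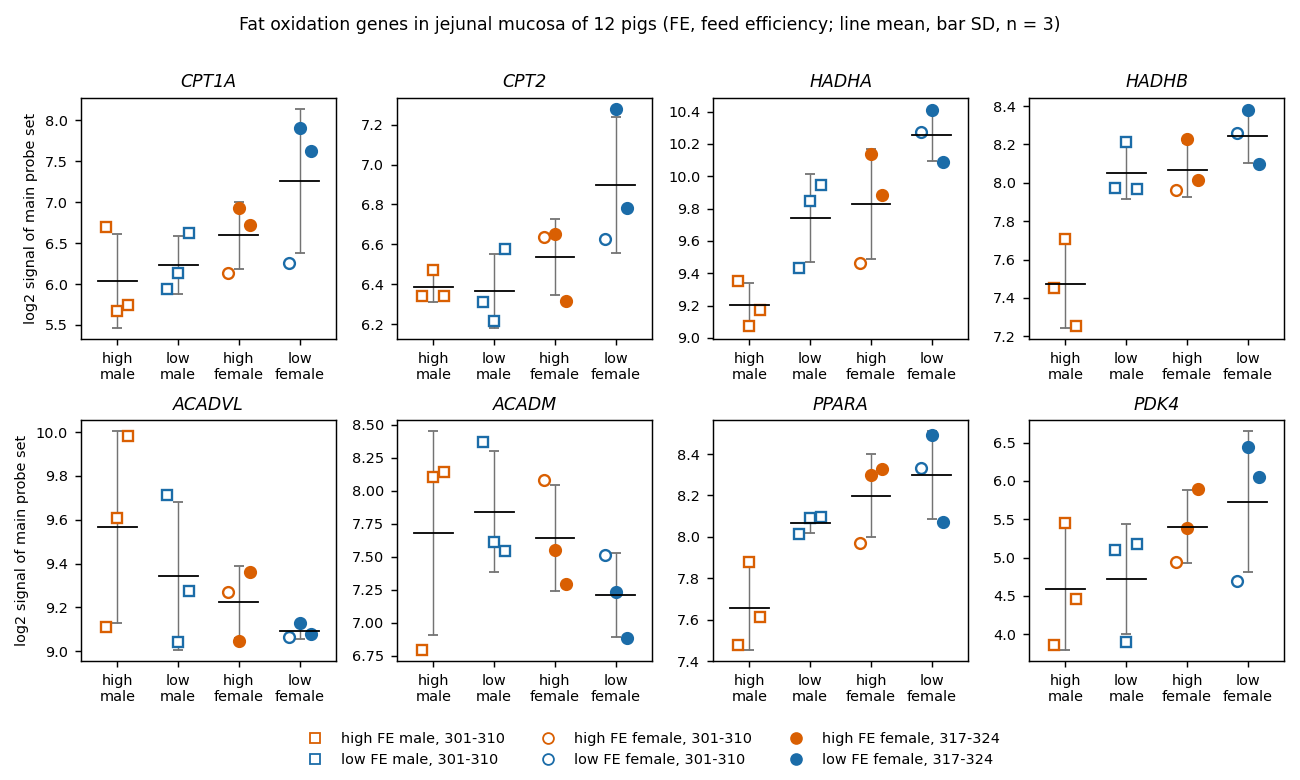
Each panel plots the log2 signal of 1 gene's main probe set (vertical axis) for the 12 pigs, split by feed efficiency and sex, with squares for males, circles for females and filled symbols for pigs 317 to 324. Lines are means and bars SD of 3 pigs. The high-efficiency males lie lowest for HADHA, HADHB and PPARA, and the filled symbols lie highest for CPT1A.

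The other probe sets of a gene had low correlations with its main one, and 4 of these 7 had means near or below the 3.66 to 3.88 of the background controls, where little co-variation can be measured. The 3 other CPT1A probe sets, with means of 5.16, 2.37 and 2.08, correlated with the main one at 0.053, -0.106 and 0.121 over the 12 pigs, and the dimmest was below the filter of 2.29. The second ACADVL probe set (mean 6.20) ran at r = -0.390 with the main one and the third (mean 3.72) at 0.262. The second PPARA probe set (mean 6.37) had r = 0.296 and the second PDK4 probe set (mean 3.21) r = 0.236. Of the 7, the second probe sets of CPT1A, ACADVL and PPARA were above the background controls. Results for these 4 genes are those of 1 probe set each, and CPT2, HADHA, HADHB and ACADM had only 1.

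**Figure D2:**
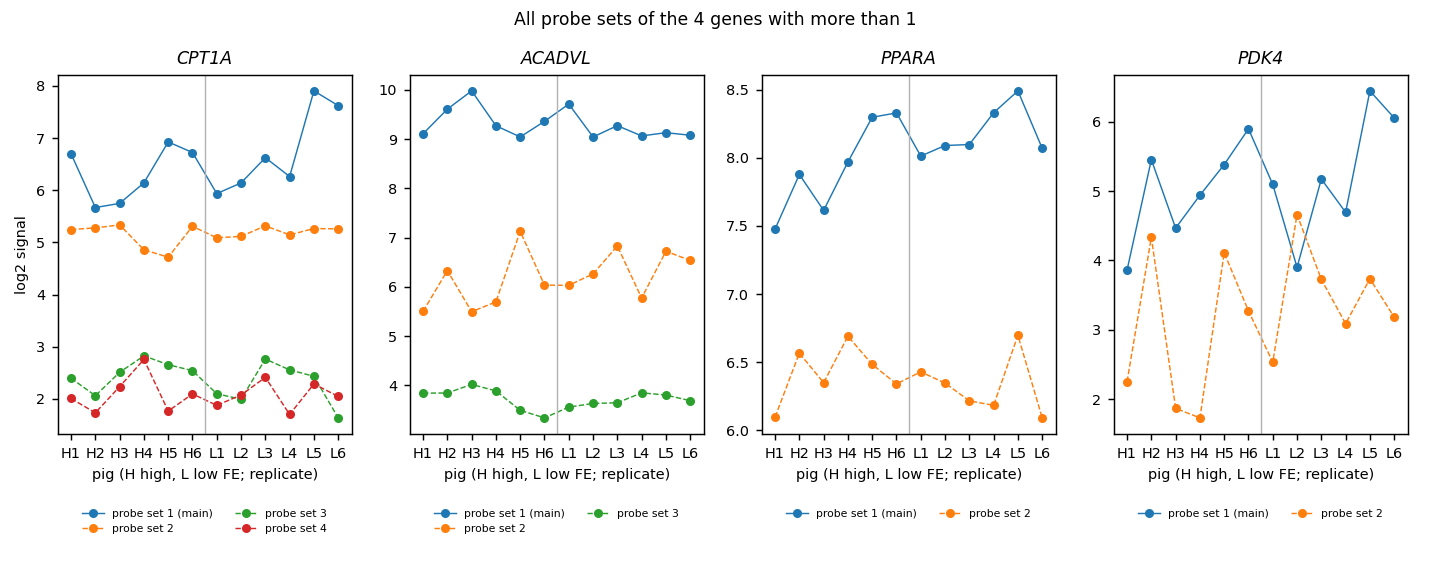
Each panel shows all probe sets of 1 gene as log2 signal (vertical axis) in the 12 pigs (horizontal axis, H high and L low feed efficiency with the replicate number), with the main probe set as a solid line. Lines only join the points of a probe set, since pigs have no order. The dashed probe sets do not trace the solid ones, with correlations from -0.390 to 0.296.

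High against low feed efficiency was fitted with limma over all 12 pigs with sex as a term. No probe set passed an adjusted p of 0.05 (0 of 35791, 0%, with 2789 at an unadjusted p under 0.05), and so 0 of the 8 genes did. Of the 8 genes 6 had lower values in the high group, where 57.2% of all 12579 genes did. The median difference of the 8 was -0.24 against -0.03 over all genes. At an unadjusted p under 0.05, 2 of 8 were lower, against 4.35% of genes. In 0 of 8 did the groups not overlap, against 0.238% of genes.

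Those 2 genes were the trifunctional subunits. HADHA had a median of 9.41 (SD 0.41, n = 6) in the high group and 10.02 (SD 0.35, n = 6) in the low group, and a limma difference of means of -0.48 (SE 0.141, unadjusted p = 0.00479, adjusted p = 0.621). HADHB averaged 7.77 ± 0.37 and 8.15 ± 0.16, a difference of -0.38 (SE 0.127, unadjusted p = 0.0113, adjusted p = 0.621 by limma). Both fail the correction over all probe sets. PPARA differed by -0.25 (SE 0.126) and CPT1A by -0.43 (SE 0.295), and CPT2 differed by -0.17 (SE 0.142) and PDK4 by -0.23 (SE 0.359). By their main probe sets the dehydrogenases lay on the other side of 0, ACADVL at 0.18 (SE 0.158) and ACADM at 0.13 (SE 0.268). By its second probe set, also above the background controls, ACADVL differed by -0.329 (SE 0.281). Those of CPT1A and PPARA differed by -0.0746 (SE 0.127) and 0.0939 (SE 0.136). The signs for ACADVL and PPARA are thus those of the main probe sets. Leaving out single pigs was done for the main probe sets. It moved the differences of CPT1A, CPT2, PDK4, ACADM and ACADVL by over 1.5 times in at least 1 case each. That of PPARA stayed between -0.32 and -0.20. CPT1A was -0.26 without pig 323, -0.60 without pig 301 and -0.63 without pig 310, and CPT2 was -0.0659 without pig 323. PDK4 was -0.0577 without pig 323, -0.08 without pig 301 and -0.45 without pig 310. ACADM was 0.0036 without pig 304 and 0.36 without pig 301, and ACADVL was 0.0815 without pig 303 and 0.27 without pig 301.

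The spread of signal within an array moved with these differences. The SD over all probe sets was 2.15 to 2.19 on the arrays of pigs 301 to 304 and 2.23 to 2.28 on the other 8. HADHA correlated with it at r = 0.894, HADHB at 0.901 and PPARA at 0.828. Only 1.19%, 0.994% and 4.12% of genes, respectively, had a larger absolute r with it. With the array SD as a term, the difference was -0.22 for HADHA, -0.15 for HADHB, -0.07 for PPARA and -0.07 for CPT1A. Its part in the result was not tested beyond this fit.

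Within males, HADHA, HADHB and PPARA were lower in the high group without overlap, as were 8.19% of all genes. The differences in males were -0.54 for HADHA, -0.58 for HADHB and -0.41 for PPARA, with limma adjusted p-values of 0.503, 0.387 and 0.541. In females they were -0.43, -0.18 and -0.10. The second PPARA probe set, also above the background controls, differed by only 0.00699 (SE 0.196) in males. Over all pigs it differed by 0.0939 (SE 0.136), and the mean of the PPARA probe sets by -0.0803. The lower PPARA values in high-efficiency males are thus those of the main probe set. Of 14 marker lists, that of T cells (6 of 6 measured) was also lower in the high-efficiency males without overlap, at 7.51, 7.61 and 7.78 against 8.22, 8.37 and 8.38, and that of endothelium (4 of 4) was higher without overlap. This share of lists is near the background: in males 1829 of 12579 genes and 13.7% of probe sets did not overlap in either direction. Over all pigs the T cell mean was 7.51 to 8.47 in the high and 8.01 to 8.38 in the low group. With the T cell mean as a term, an alternative chosen after seeing the data, the feed efficiency difference was -0.40 for HADHA, -0.28 for HADHB and -0.12 for PPARA, and it was -0.36 for CPT2. No probe set passed an adjusted p of 0.05 in males (0%, 3121 at an unadjusted p under 0.05) or in females (0%, 1947). The interaction of feed efficiency and sex passed for no probe set (0%, 2395 at an unadjusted p under 0.05), and for HADHB it was -0.40 (SE 0.234). The smallest adjusted p among the 8 genes was 0.769 by limma, so no difference between the sexes in the feed efficiency effect was detectable.

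Males were compared with females in the same model. Of the 8 genes 6 were lower in males, against 52.8% of all genes, and all 6 had an unadjusted p under 0.05, against 5.96% of genes. None of the 8 passed the adjusted threshold, which 6 probe sets (0.0168%) did by limma. PDK4 differed by -0.91 (SE 0.359), CPT1A by -0.79 (SE 0.295) and HADHA by -0.57 (SE 0.141), with adjusted p-values of 0.501, 0.495 and 0.406 by limma. HADHB and PPARA both differed by -0.39 and CPT2 by -0.34, while ACADVL was at 0.30 and ACADM at 0.34. These are the main probe sets. The second probe sets above the background controls were at 0.14 (SE 0.127) for CPT1A, -0.08 (SE 0.136) for PPARA and -0.24 (SE 0.281) for ACADVL. The sex differences of these genes are thus those of the main probe sets. Without pig 301 CPT1A was at -0.97 and ACADM at 0.57. Sex and identifier range overlapped in this comparison. With the range as a term, CPT1A moved to -0.07, PDK4 to -0.16, ACADM to -0.03, HADHA to -0.40 (SE 0.195), HADHB to -0.35 (SE 0.186) and PPARA to -0.29 (SE 0.181), and 0 of the 8 then had an unadjusted p under 0.05 by limma.

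Pigs 317 to 324 were compared with pigs 301 to 310 with sex and feed efficiency in the model. No probe set passed an adjusted p of 0.05 (0%, 1833 at an unadjusted p under 0.05). Of the 8 genes 6 were higher in pigs 317 to 324, against 55.6% of genes, and 2 of 8 had an unadjusted p under 0.05 in that direction, against 2.44%. These were CPT1A and PDK4. CPT1A was 1.09 higher (SE 0.327, 2.13-fold, adjusted p = 0.920 by limma), and its values of 6.72 to 7.90 all lay above the 5.67 to 6.70 of pigs 301 to 310. Such a separation was seen in 0.731% of genes. The second CPT1A probe set, also above the background controls, differed by only 0.14 (SE 0.194), so this difference is that of the main probe set. PDK4 was 1.13 higher (SE 0.45, 2.18-fold, adjusted p = 0.920 by limma), with values of 5.38 to 6.44 that overlapped the 3.86 to 5.45 of the other range.

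The remaining genes differed less between the ranges. HADHA was at 0.26, PPARA at 0.15, CPT2 at 0.13, HADHB at 0.07 and ACADVL at -0.01, and ACADM was at -0.56 (SE 0.384). Since all males were in the lower range, the range differences, those of CPT1A and PDK4 included, rest on the 6 females, 2 against 4. The second ACADVL probe set differed by 0.87 (SE 0.354), unlike the main one, and the second PDK4 probe set was not above the background controls. Within pigs 301 to 310 the feed efficiency difference was -0.61 for HADHA, -0.51 for HADHB and -0.40 for PPARA. It was -0.18 for CPT1A and -0.04 for PDK4. Within pigs 317 to 324, with 2 pigs a group, it was -0.24, -0.12 and 0.03 for the first 3, -0.94 for CPT1A and -0.61 for PDK4.

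**Figure D3:**
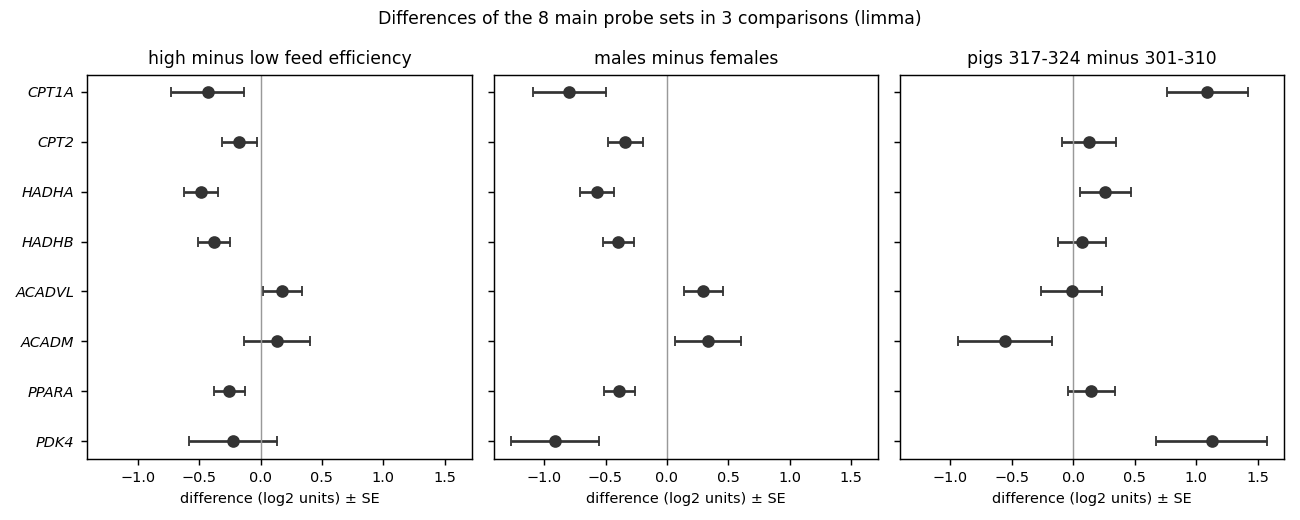
Points are limma differences in log2 units (horizontal axis) of the 8 main probe sets and bars their SE, in 3 panels for feed efficiency, sex and identifier range. HADHA and HADHB lie below 0 by feed efficiency and sex, and CPT1A and PDK4 stand out by identifier range at 1.09 and 1.13.

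Co-variation was measured over the 28 pairs of main probe sets in the 12 pigs, with 100000 permutations. By Pearson's r, 9 pairs had a Benjamini-Hochberg adjusted p under 0.05, by Spearman's rho 5, and the same 5 by both. The share of pairs of other genes that would pass was not computed, so these counts have no background beside them. The median r was 0.48, and 16 pairs were above 0. The trifunctional subunits and PPARA formed the closest trio. HADHB and PPARA had r = 0.914 (permutation p = 8.00e-05, adjusted p = 0.00224) and rho = 0.895 (permutation p = 0.00019, adjusted p = 0.00196), and r = 0.815 without the 2 pigs farthest from the HADHB median. HADHA and HADHB had r = 0.847 (permutation p = 0.00019, adjusted p = 0.00266) and rho = 0.895 (permutation p = 0.00021, adjusted p = 0.00196), and r = 0.815 without 2 pigs. HADHA and PPARA had r = 0.841 (permutation p = 0.00055, adjusted p = 0.00513) and rho = 0.895 (permutation p = 0.00017, adjusted p = 0.00196), and r = 0.83 without 2 pigs.

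CPT1A joined HADHA at r = 0.748 (permutation p = 0.00474, adjusted p = 0.0221) and rho = 0.776 (permutation p = 0.00412, adjusted p = 0.0231), and r was 0.653 without pigs 323 and 324. It ran opposite to ACADM, with r = -0.772 (permutation p = 0.00327, adjusted p = 0.0221), rho = -0.825 (permutation p = 0.00156, adjusted p = 0.0109) and r = -0.782 without those pigs. CPT1A and CPT2 had r = 0.747 but 0.259 without pigs 323 and 324, so this relation rested on them. CPT1A and PDK4 had r = 0.611, which was 0.744 without pig 301, 0.145 without pigs 323 and 324 and -0.381 within pigs 301 to 310. Pairs passing by r alone also included ACADVL with ACADM at 0.718, CPT2 with PDK4 at 0.687 and HADHA with ACADVL at -0.720. Without the 2 pigs farthest from the median of the first gene these were 0.547, 0.379 and -0.517, so that of CPT2 with PDK4 rested on those pigs.

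These relations were partly shared with the group structure. After sex and feed efficiency group were taken out, 0 of the 28 pairs passed, and r was 0.766 for HADHB with PPARA, 0.397 for HADHA with HADHB and -0.761 for CPT1A with ACADM. After the array SD was taken out, 0 passed, and the same pairs had r = 0.693, 0.212 and -0.702. Within pigs 301 to 310, 1 pair passed by an exact permutation test, HADHB with PPARA at r = 0.929, while HADHA with HADHB had 0.779 and CPT1A with ACADM -0.838. Without pig 301, 14 pairs passed. The r of ACADM then went from -0.138 to -0.652 with PPARA, from -0.211 to -0.592 with HADHB and from -0.534 to -0.820 with HADHA.

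**Figure D4:**
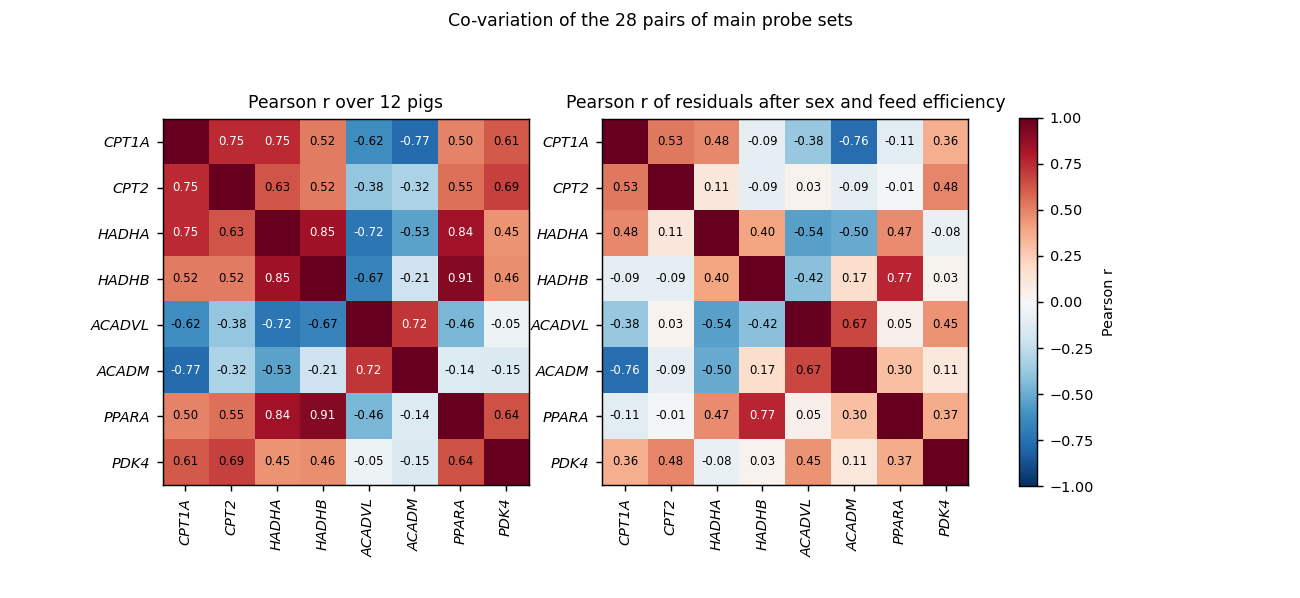
The left map gives Pearson's r for each pair of main probe sets over the 12 pigs, the right map the same for residuals after sex and feed efficiency, on a colour scale from -1 to 1. HADHA, HADHB and PPARA form a block at 0.841 to 0.914 on the left, and at 0.397 to 0.766 on the right.

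**Figure D5:**
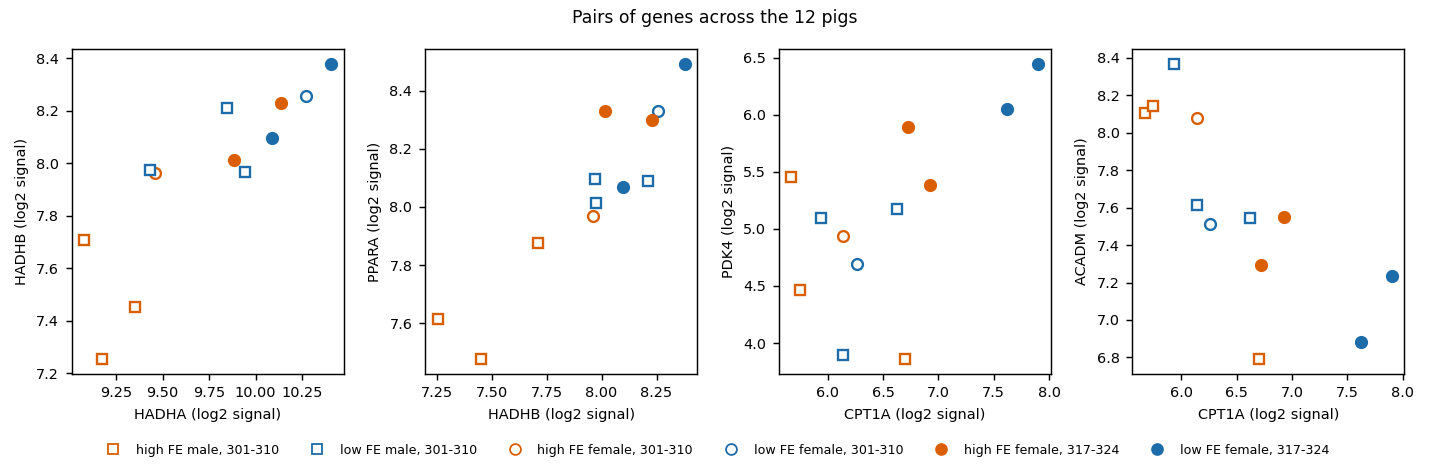
Each panel plots the log2 signals of 2 genes against each other, 1 point per pig, with the symbols of the plot of values by pig. HADHB and PPARA lie along a line over all pigs, whereas CPT1A and PDK4 separate mainly by identifier range (filled symbols).

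Among the 12578 other genes, HADHB ranked 19th by r for PPARA and PPARA 23rd for HADHB. HADHB ranked 258th for HADHA and HADHA 130th for HADHB, so the trifunctional partners were not each other's nearest genes. CPT1A ranked 36th for CPT2 and 825th for HADHA, and CPT2 ranked 377th for CPT1A. ACADM, which ran opposite to CPT1A, ranked 12462nd for it. In each of the positive pairs named here some other genes thus had a higher r than the partner. How often pairs of other genes reach such values was not computed. The genes of highest r were PDE6D (0.975), GRINA (0.974) and OAF (0.966) for HADHA, and AQP11 (0.956), CIDEB (0.950) and PPT2 (0.946) for HADHB. For PPARA they were MAST2 (0.970), DHRS11 (0.959) and PDE9A (0.954). For CPT1A they were MAP4 (0.956), UBR4 (0.951) and GTF3A (0.926), and for CPT2 RUSC1 (0.874), LRWD1 (0.866) and EPAS1 (0.865). ACADVL was nearest to PURB (0.952), TP53BP1 (0.945) and RWDD3 (0.945), ACADM to STRBP (0.944), PSMC6 (0.941) and ONECUT2 (0.940), and PDK4 to SLC6A6 (0.878), MYO1D (0.869) and ATP7B (0.850). These are descriptions over 12 pigs that share sex, group and array differences.

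The wider pathway was read from 8 lists, also chosen with earlier results of these data known, so their counts are descriptions too. The lists held 101 genes, of which 81 were tested and 0 passed the adjusted threshold for feed efficiency. Of the 81, 55 (67.9%) were lower in the high group, beside 57.2% of all genes. At an unadjusted p under 0.05, 4 were lower and 2 higher, shares close to the 4.35% and 2.79% of all genes, and the median difference was -0.12. The same 57.2% is the background of each list count that follows. In the carnitine shuttle and fatty acid activation 8 of 11 genes were lower, among them CRAT, the carnitine acetyltransferase, at -0.36 (SE 0.140) and SLC25A20, the carnitine-acylcarnitine carrier, at -0.32. The acyl-CoA synthetases ACSL4 (0.30) and ACSL1 (0.24) were on the other side. In mitochondrial beta oxidation 11 of 17 were lower, with DECR1 at -0.27, ETFDH at -0.18 and HADH at -0.16, and ETFA, an electron carrier subunit, at 0.35.

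In ketone body metabolism 4 of 5 were lower, with BDH1, the hydroxybutyrate dehydrogenase, at -0.24, and in peroxisomal oxidation 7 of 10, with ACOT8 at -0.33 and ACAA1 at -0.25. Of the PPAR receptors and their cofactors 6 of 10 were lower, with PPARGC1B at -0.59 and PPARG at -0.47. Of other PPAR targets 10 of 11 were lower, including the lipid droplet genes CIDEC (-0.53) and PLIN2 (-0.49) and the fatty acid transporter CD36 (-0.49). In malonyl-CoA control 6 of 8 were lower, with the AMP kinase subunit PRKAA1 at -0.24. In pyruvate dehydrogenase control 4 of 10 were lower, and the pyruvate carrier MPC1 had group means of 3.40 and 3.71, near or below the background controls.

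Between the identifier ranges 0 of the 81 passed the adjusted threshold. At an unadjusted p under 0.05, 8 (9.88%) were higher in pigs 317 to 324, beside 2.44% of all genes. In the other direction 0 of the 81 were lower, near the 1.36% of all genes. Besides CPT1A and PDK4 they included the PPAR targets PLIN2 at 1.19 (SE 0.393) and CD36 at 1.09 (SE 0.338), SLC25A20 at 0.59 (SE 0.237) and the corepressor NCOR1 at 0.55 (SE 0.174).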

How the data were processed

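One array per pig was analysed for 12 pigs. The values used are the log2 signals that the authors deposited for every probe set. GCOS 1.1.1 is named in the submitters' processing notes, and the steps of background correction, summarization and normalization were not given in the sources used here. No new normalization was applied. Of 47845 probe sets, 123 controls were left out; 26426 of the other 47722 had 1 symbol in the platform annotation, 21296 were unnamed here and 0 had several. Symbols were updated through the RefSeq gene table of Sscrofa11.1 (446 changed, 0 of the 8 genes). Probe sets with a mean above the 25th percentile (2.29) were tested, 35791 in all, including 14 of the 15 of the 8 genes.

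Groups came from the labels. limma 3.58.1 (R 4.3.3) gave all differences, with Benjamini-Hochberg adjustment over all probe sets tested and a threshold of 0.05. Correlations used 100000 permutations (all permutations for 8 pigs), adjusted over 28 pairs. The fits were tested on simulated data. Precision is limited by the number of arrays, with a median SE for feed efficiency of 0.169.

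The genes and lists were chosen with earlier results of these data known. Named genes were the 8 with all probe sets, up to 4 others per pathway list of smallest unadjusted feed efficiency p, and the 3 of highest r for each of the 8. Replicates are separate pigs. The alternatives tried were quantile normalization, other filters, array weights, other covariates, subsets of pigs and leaving out each pig.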

Additional observations from a re-analysis of the deposited data

Results flagged for a closer look

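Within the low feed efficiency group, ACADVL in pig 307 (replicate 1), at 9.71, stood far above the other 5 pigs by Dixon's criterion. It was 1 of 48 sets of values examined, and chance marks about 1 in 20.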

How the results depend on the processing

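The number of arrays limits what could be detected, and no difference for the 8 genes passed an adjusted p of 0.05 under any alternative run. No paired analysis was possible because the replicate numbers only follow accession order. The number of probe sets called was 1 for feed efficiency in pigs 301 to 310 alone, and for identifier range 2 with no filter and 0 to 1 when each pig was left out in turn. The 9 co-varying pairs became 14 without pig 301, 13 after quantile normalization, 0 in residuals after sex and feed efficiency, 1 in pigs 301 to 310 and 0 in residuals after array SD, the last 2 chosen after seeing the data. The causes were not tested.

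Some small differences changed sign. For feed efficiency, ACADVL went to -0.0547 and ACADM to -0.15 with array SD as a term, CPT2 to 0.016 in pigs 301 to 310, PPARA to 0.0329 in pigs 317 to 324, and ACADVL to -0.0362 as the mean of its probe sets. For sex, ACADM went to -0.0346 with the identifier range as a term or in pigs 301 to 310, which give the same value by construction.
For identifier range, ACADVL went to 0.0025 with array weights, 0.092 with the enterocyte marker mean as a term (chosen after seeing the data) and 0.19 as the mean of its probe sets. Leaving out each pig in turn gave ranges from -0.0587 to 0.0601 for ACADVL, from -0.0191 to 0.172 for HADHB and from -0.0374 to 0.26 for CPT2. For the interaction, HADHA went to 0.0047 after quantile normalization, and leaving out each pig gave -0.296 to 0.0418 for HADHA, -0.12 to 0.32 for ACADVL and -0.23 to 0.71 for PDK4.

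Correlations that changed sign after sex and feed efficiency were taken out were CPT1A with HADHB (-0.0899) and PPARA (-0.11), CPT2 with HADHB (-0.0927), ACADVL (0.0321) and PPARA (-0.0116), HADHA with PDK4 (-0.0778), HADHB with ACADM (0.17), ACADVL with PPARA (0.0488) and PDK4 (0.45), and ACADM with PPARA (0.30) and PDK4 (0.11). After array SD they were CPT1A with HADHB (-0.28) and PPARA (-0.14), HADHB with ACADM (0.54), ACADVL with PPARA (0.34) and PDK4 (0.40), and ACADM with PPARA (0.49) and PDK4 (0.063). In pigs 301 to 310 they were CPT1A with PDK4 (-0.38), CPT2 with ACADM (0.0187), HADHA with PDK4 (-0.13), HADHB with ACADM (0.0336), ACADVL with PDK4 (0.41), and ACADM with PPARA (0.21) and PDK4 (0.63).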
